A study of Mus musculus with 4 samples.

Results

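Cytotoxic lymphocyte genes were followed across single bone marrow progenitor cells of wild-type (WT) and G3SEKO mice. The set was a list of 10 genes, Nkg7, Ms4a4b, Ms4a6b, Ctsw, Gzma, Gzmb, Prf1, Ccl5, Xcl1 and Eomes, of which 9 had a row in both count tables, among 26421 genes in either table. Gzmb was not analysed here. Nkg7 and Ms4a4b put the list forward because they were higher in the few ST2+ (Il1rl1-expressing) ILC2-like cells of G3SEKO mice, and the question was whether the other cytotoxic genes accompanied them. The values of that contrast are therefore a description and carry no test.

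The cells were αLPs, lineage-negative CD127+FLT3-LPAM-1+ bone marrow progenitors, sorted from C57BL/6 WT mice and from G3SEKO mice, in which both GATA3-related super-enhancers are deleted from the germ line. The lineage cocktail of the sort included antibodies to CD3e, CD8 and NK1.1, so mature T and NK cells were depleted before capture. Cells of several mice of each genotype were pooled, tagged with anti-MHC class I hashtags and captured together in each of 2 experiments, and whole-transcriptome libraries were made by TAS-Seq. After filters, experiment 1 held 681 WT and 43 G3SEKO cells, and experiment 2 held 5130 WT and 1159 G3SEKO cells. In experiment 2 the G3SEKO cells are those with hashtag A0303, which the label of the library lists under WT. It was taken as G3SEKO from the rule that defined the groups and from the cell numbers of the study, so all G3SEKO values from experiment 2 depend on that assignment. Whether a hashtag marks 1 mouse is not stated, so all cells of a genotype in an experiment counted as 1 sample.

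Cytotoxic lymphocytes kill by releasing granules that hold perforin, which opens the target membrane, and granzymes, the proteases that enter through it. NKG7 is a membrane protein of those granules that takes part in degranulation, cathepsin W is a cysteine protease of NK and CD8 T cells, and CCL5 and XCL1 are chemokines that such cells secrete. EOMES is a T-box transcription factor of NK cells and memory CD8 T cells, and MS4A4B and MS4A6B are related membrane proteins known from T cells. Early innate lymphoid precursors (ILCPs), marked by Zbtb16 and Il18r1, give rise to ILC1, ILC2 and ILC3, whereas committed ILC2s carry ST2, the IL-33 receptor encoded by Il1rl1.

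The genes lie on different chromosomes except for 3 on chromosome 19. In GRCm38 (GENCODE vM21), Nkg7 occupies chr7:43437073-43438249 on the plus strand. Ms4a4b (chr19:11443553-11467055) and Ms4a6b (chr19:11516512-11531256) lie on the plus strand within the MS4A cluster, with Ms4a6c (chr19:11469366-11482192) between them, and Ctsw (chr19:5465043-5468507, minus strand) is on the same chromosome but apart from them. RefSeq promoters (GRCm38.p6) matched 8 of the 10 genes and did not cover Ctsw and Ccl5. The 250 bases before the start site of Nkg7, Ms4a4b and Ms4a6b are shown, 5′ to 3′ on the strand of the gene, because the values below turn on these 3 genes. The RefSeq start sites lie downstream of the GENCODE gene starts, so the Nkg7 and Ms4a4b windows end inside the spans given above and the Ms4a6b window lies within its span. Capitals mark matches, on either strand, to a T-box motif (GGTGTG) or a RUNX motif (TGTGGT).
Nkg7, chr7:43436888-43437137: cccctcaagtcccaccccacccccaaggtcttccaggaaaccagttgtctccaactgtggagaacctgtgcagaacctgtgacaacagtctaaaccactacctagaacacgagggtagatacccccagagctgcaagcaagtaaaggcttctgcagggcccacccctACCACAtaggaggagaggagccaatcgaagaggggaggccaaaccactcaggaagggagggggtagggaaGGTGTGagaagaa
Ms4a4b, chr19:11443308-11443557: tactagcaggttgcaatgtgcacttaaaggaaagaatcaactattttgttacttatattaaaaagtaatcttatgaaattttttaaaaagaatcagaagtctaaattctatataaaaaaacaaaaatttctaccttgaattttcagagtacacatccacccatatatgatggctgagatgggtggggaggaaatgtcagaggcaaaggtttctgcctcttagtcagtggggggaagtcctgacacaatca
Ms4a6b, chr19:11518309-11518558: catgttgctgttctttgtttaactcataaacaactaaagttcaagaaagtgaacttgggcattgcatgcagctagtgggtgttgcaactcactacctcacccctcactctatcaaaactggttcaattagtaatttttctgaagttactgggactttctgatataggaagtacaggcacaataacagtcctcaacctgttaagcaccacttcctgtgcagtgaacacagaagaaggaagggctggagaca
The Nkg7 promoter held 1 T-box match, starting 13 bases before the start site, and 1 RUNX match on the opposite strand, starting 83 bases before it. The T-box match is inside the GENCODE span of Nkg7. Neither motif occurred in these windows of Ms4a4b and Ms4a6b, and none of the 3 held the GATA motif searched (AGATAA). Among 32851 promoter windows of the same length, 16.3% held the T-box, 14.05% the RUNX and 9.99% the GATA letters, so a match is common and is only a description.

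Each cell was placed in 1 class by its level of the gate genes, ln(1 + reads per 10000 reads) of at least 1, in the order Cd3e+, Eomes+, ST2+ Il18r1+, ST2+ Il18r1-, Zbtb16+ (without Il1rl1) and Il18r1+ Zbtb16- (without Il1rl1). A level is given as CPM, the reads of a gene per 1000000 reads, in the summed reads of a class, genotype and experiment. Whether molecular identifiers were collapsed is not given in the sources used here, so reads are not taken as independent molecules, and the intervals below cover counting of cells only. The sums held between 270019 and 190958005 reads, and the lower bound came from 7 Cd3e+ cells. The median depth was far greater in experiment 1 (370422 reads in WT ST2+ cells) than in experiment 2 (31151 reads), so shares of cells are given from experiment 2 and after thinning each cell to the same number of reads.

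ST2+ cells were the majority of WT αLPs and rare in G3SEKO. They made up 62.3% of the 681 WT cells in experiment 1 and 69.1% of the 5130 in experiment 2. In G3SEKO they were 1 of 43 cells and 50 of 1159 cells, or 4.31% (95% exact binomial interval 3.22 to 5.65%). Il18r1 also differed, since 74.0% of the 50 cells were Il18r1+ (37 cells, interval 59.7 to 85.4%) against 5.36% of the 3546 WT ST2+ cells. Gata3, the nearest target of the deletion, stood at 294 CPM in the 50 cells and 1040 CPM in the WT ones, and Il1rl1 itself at 573 and 1363 CPM. Cells that pass the ST2 gate in G3SEKO therefore had less of both genes. All values of the ST2+ contrast rest on 51 G3SEKO cells, of which 1 came from experiment 1.

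Nkg7 was at 404 CPM in the ST2+ cells of G3SEKO and 7.999 CPM in those of WT in experiment 2. In experiment 1 the lone G3SEKO cell had 126 CPM and the 424 WT cells 17.7 CPM. The log2 ratio, with 2 reads added in proportion to the size of each sum, was 5.65 in experiment 2 and 2.83 in experiment 1. As the latter is 1 cell, the pair gives no estimate of the spread between experiments. Il18r1+ cells made up most of the G3SEKO sum, and among ST2+ Il18r1+ cells alone Nkg7 stood at 431 CPM in G3SEKO and 28.2 CPM in WT in experiment 2, a log2 ratio of 3.92. In experiment 1 that ratio was 1.14, from 126 CPM in the lone cell and 57.0 CPM in 58 WT cells. Thus the ratio was smaller among the Il18r1+ cells than over all ST2+ cells in both experiments. After thinning, 34.0% of the 50 G3SEKO cells (interval 21.2 to 48.8%) and 1.35% of the 3546 WT cells (0.9997 to 1.79%) had a Nkg7 read. Before thinning the shares were 40.0% and 3.86%, at median depths of 42235 and 31151 reads. Of the gated WT classes of experiment 2, Nkg7 was lowest in the large ILC2-like class, ST2+ Il18r1- cells, with 6.55 CPM. That value sets no limit on reads from doublets or from cells with a wrong hashtag. How much of the G3SEKO level came from reads of other cells was not tested.

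Ctsw was higher in G3SEKO in experiment 2 as well, on fewer cells and with a size that depended on the gates. It stood at 190 CPM in G3SEKO ST2+ cells and 13.0 CPM in WT, and at 163 and 19.3 CPM among ST2+ Il18r1+ cells. With gates at 2 it was at 28.1 CPM in the 18 G3SEKO cells and 14.01 CPM in WT, whereas Nkg7 was at 198 and 6.99 CPM. The lone ST2+ G3SEKO cell of experiment 1 had 0 Ctsw reads. A read remained after thinning in 16.0% of the 50 G3SEKO cells (7.17 to 29.1%) and 2.65% of the WT cells (2.15 to 3.23%). The sum was uneven, since all 133 Ctsw reads of the 13 ST2+ Il18r1- cells came from 1 cell, and 1 cell held 41.4% of the reads of the 37 Il18r1+ ones. For Nkg7 the largest share held by 1 cell was 60.8% of the 13 and 24.7% of the 37. Over all 50 cells these shares were 30.1% for Ctsw and 22.4% for Nkg7.

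Ms4a4b was at 286 CPM in G3SEKO ST2+ cells and 20.6 CPM in WT in experiment 2. In experiment 1 the values were 984 CPM in the lone G3SEKO cell and 42.7 CPM in WT. The log2 ratios were 3.79 in experiment 2 and 4.53 for the lone cell. Among ST2+ Il18r1+ cells the ratios were 3.33 and 3.43. After thinning, 22.0% of the G3SEKO cells (11.5 to 36.0%) and 2.74% of the WT cells (2.22 to 3.33%) had an Ms4a4b read. Before thinning, 1 cell held 27.3% of the Ms4a4b reads of the 50 G3SEKO cells. Ms4a6b, in contrast, was present in WT ST2+ cells too. It stood at 306.6 CPM in G3SEKO and 187 CPM in WT in experiment 2, a log2 ratio of 0.71, but 1 cell held 36.1% of the G3SEKO reads. Among ST2+ Il18r1+ cells it was higher in G3SEKO (355 against 151 CPM, a log2 ratio of 1.23). Among ST2+ Il18r1- cells it was lower in G3SEKO (38.6 against 189 CPM), from 15 reads in 13 cells, 86.7% of them in 1 cell. Over all ST2+ cells, reads of Ms4a6b were present after thinning in 28.0% (16.2 to 42.5%) of G3SEKO and 23.9% (22.6 to 25.4%) of WT cells. The intervals of these shares overlap. In experiment 1 the lone G3SEKO cell had 0 Ms4a6b reads, against 137 CPM in WT. The 9 other MS4A genes with a row stood at 5.07 CPM or less in the 50 G3SEKO cells. Ms4a4c was the highest, at 5.07 CPM against 0.90 CPM in WT, and its reads lay in the 13 Il18r1- cells (33.4 CPM, against 0 in the 37 Il18r1+ ones). Ms4a6c was at 0.39 CPM in G3SEKO and 5.14 CPM in WT. Whether reads of such relatives were exchanged at alignment was not tested.

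The granule effectors Prf1 and Gzma were at or near 0 in ST2+ G3SEKO cells, as they were in Eomes+ and Zbtb16+ cells. Prf1, which encodes perforin, had 0 reads in the 50 ST2+ G3SEKO cells of experiment 2 and in the lone cell of experiment 1. In WT ST2+ cells it stood at 8.56 CPM (experiment 2) and 7.71 CPM (experiment 1, where 1 cell held 27.8% of the reads). It was found in 90 of 3546 WT cells of experiment 2 (2.54%), while 0 of 50 cells allows a share of up to 7.11% by the exact interval (6.00% if 3 cells are taken as the limit), so a lower share in G3SEKO was not detectable with this number of cells. Gzma, which encodes granzyme A, had 1 read in the 50 G3SEKO cells and 4 reads in the 3546 WT cells. Across every class, genotype and experiment Gzma never passed 0.46 CPM. Prf1 had 0 reads in 3 of 4 Eomes+ sums and 1 read in the other, where Nkg7 stood at 316 to 1173 CPM, and it reached at most 1.19 CPM in Zbtb16+ sums. Xcl1 had 0 reads in ST2+ G3SEKO cells of both experiments and in WT ST2+ cells of experiment 2. Ccl5 stood at 112 CPM in G3SEKO and 74.8 CPM in WT in experiment 2, with reads after thinning in 10% (3.33 to 21.8%) and 11.7% (10.6 to 12.8%) of cells. Among ST2+ Il18r1+ cells Ccl5 was at 121 and 45.8 CPM, with reads after thinning in 10.8% and 10.5% of cells. There 1 cell held 35.1% of the G3SEKO reads. Eomes, kept low in ST2+ cells by the order of the gates, had 5 reads in the 50 cells.

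The background of that contrast is wide. In experiment 2, 16.1% of 10217 genes with at least 10 CPM in either ST2+ sum were at least 2-fold higher in G3SEKO and 17.0% at least 2-fold lower, and among ST2+ Il18r1+ cells the shares were 17.2% and 19.4%. Of the 5 listed genes at that level, Nkg7, Ctsw and Ms4a4b were at least 2-fold higher over all ST2+ cells, and all 5 were among the Il18r1+ cells. Over both experiments 1.69% of 10712 genes were at least 2-fold higher, Nkg7 and Ms4a4b among them. Since this contrast chose the list, and in experiment 2 Nkg7 reached 10 CPM in G3SEKO alone, nothing is read from these counts.

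**Figure D1:**
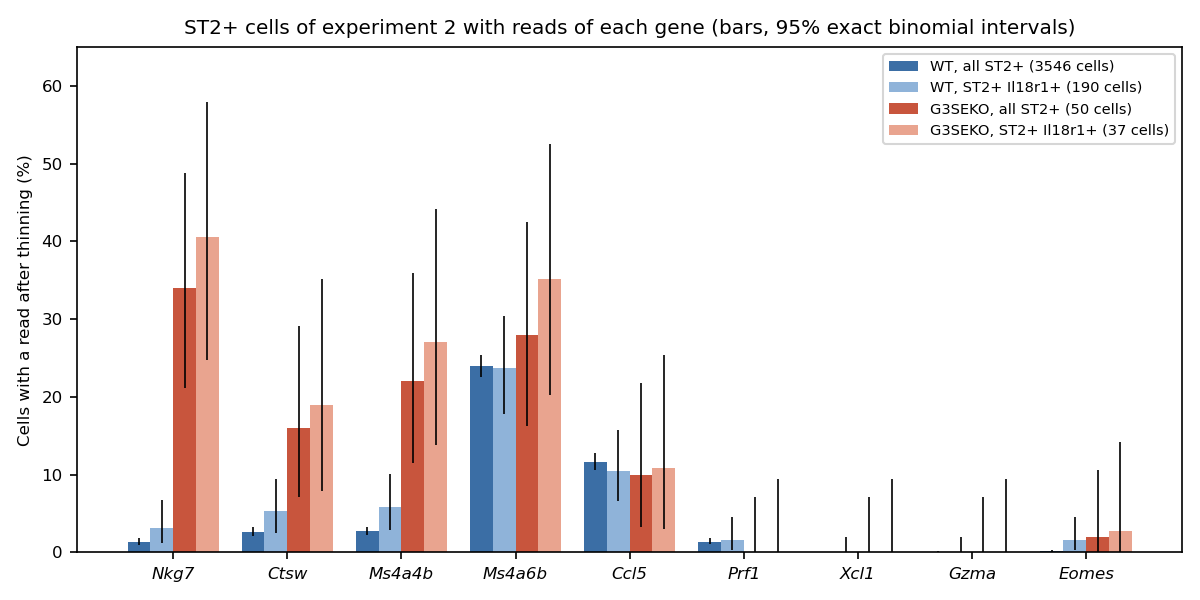
Percentage of ST2+ cells of experiment 2 with at least 1 read of each gene after every cell was thinned to the same number of reads (y axis), for all ST2+ cells and for Il18r1+ ones of WT (blue) and G3SEKO (red). Bars are shares and lines 95% exact binomial intervals. Nkg7 reached 34.0% of the 50 G3SEKO cells and 1.35% of the 3546 WT cells, whereas Prf1, Xcl1 and Gzma had no read in the thinned G3SEKO cells.

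Most of these cells carried none or 1 of the genes. Counting a gene as present at the same level as the gates, 16 of the 50 ST2+ G3SEKO cells of experiment 2 had Nkg7, 10 had Ms4a4b and 6 had Ctsw. Of the 16 Nkg7 cells, 4 also had Ctsw, 3 had Ms4a4b, 3 had Ccl5, and 0 had Gzma or Prf1. Of the 6 Ctsw cells 4 had Nkg7, and of the 10 Ms4a4b cells 7 had Ms4a6b and 3 had Nkg7. Among the 3546 WT ST2+ cells, 27 had Nkg7, and 2 of those had Ctsw. Of the 8 genes other than Eomes, 20 of the 50 G3SEKO cells had none, 15 had 1, 9 had 2, 5 had 3 and 1 had 4 or more. In Cd3e+ cells of experiment 2, by comparison, 4 of 12 G3SEKO cells and 1 of 7 WT cells had 4 or more. In Eomes+ cells it was 3 of 42 G3SEKO cells and 1 of 26 WT cells. At this depth a cell can carry a transcript without a read, so a cell counted without a gene may still express it.

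Splitting the ST2+ G3SEKO cells of experiment 2 by Zbtb16 gave different summed levels for some of the genes. Zbtb16 reached the gate in 12 of the 50 cells (24.0%, interval 13.1 to 38.2%) and in 148 of the 3546 WT cells (4.17%). Nkg7 was alike on both sides, at 408 CPM in the 12 cells and 401 CPM in the 38 others. Ctsw was at 394 CPM in the 12 cells and 90.1 CPM in the 38 others, and Ccl5 at 238 and 49.4 CPM. Ms4a4b was at 48.5 CPM in the 12 cells and 402 CPM in the 38 others, and Ms4a6b at 45.0 and 435 CPM. Ctsw and Ccl5 were thus higher with Zbtb16, and the MS4A pair without it, on small numbers of cells and with no replicate check. At the gate level, Ctsw was in 3 of the 12 cells and 3 of the 38, and Ccl5 in 4 and 2. Ms4a4b was in 1 and 9, and Ms4a6b in 1 and 13. In WT ST2+ cells Nkg7 was higher with Zbtb16 and Ctsw was not, while Ccl5 and the MS4A pair lay on the same sides as in G3SEKO, less far apart. There Nkg7 stood at 29.3 CPM in the 148 cells with Zbtb16 and 7.05 CPM in the 3398 without it, Ctsw at 12.2 and 13.0 CPM, Ccl5 at 114 and 73.0 CPM, Ms4a4b at 13.5 and 20.9 CPM, and Ms4a6b at 169.9 and 188 CPM.

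**Figure D2:**
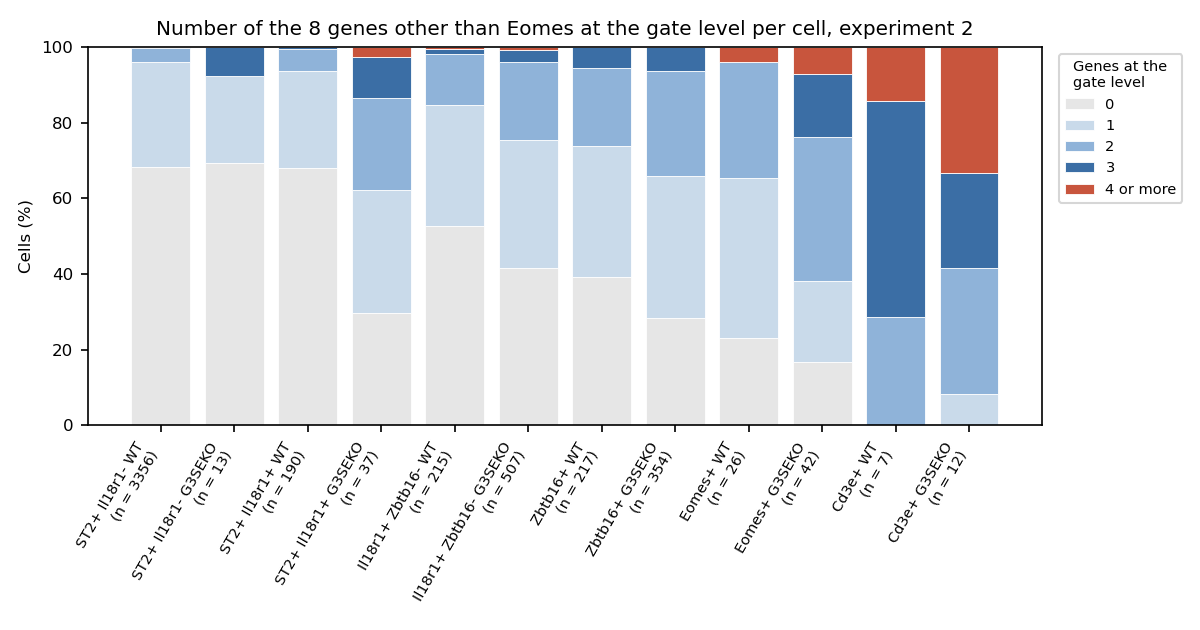
Share of cells of experiment 2 (y axis, percent) with 0, 1, 2, 3 or at least 4 of the 8 genes other than Eomes at the gate level, by class and genotype (x axis, with the number of cells). Of the 37 ST2+ Il18r1+ G3SEKO cells 11 had none, against 129 of the 190 WT cells of that class.

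Markers of other lineages moved with the ST2+ contrast. The summed level of 12 NK and ILC1 markers was 487 CPM in G3SEKO and 30.4 CPM in WT ST2+ cells of experiment 2, from 10 and 12 of the markers. Of these, 5 reached 10 CPM in either sum, 4 of them in G3SEKO alone, so that they had to differ and their count is not used. Tyrobp stood at 179 CPM in G3SEKO and 3.51 CPM in WT, Fcer1g at 146 and 5.60 CPM, Klrk1 at 36.7 and 0.51 CPM, and Klrd1 at 19.1 and 0.52 CPM. Klre1 and Klra4 were at 0 in the 50 cells, and Ncr1 and Klrb1c at 2.73 and 0.78 CPM. In experiment 1 the summed levels were 533 and 36.7 CPM, but 528 CPM of the lone G3SEKO cell were Il2rb, and 9 of the 12 markers were at 0 in it, Tyrobp and Fcer1g among them. The 13 T lineage markers other than Cd3e summed to 2373 CPM in G3SEKO and 874 CPM in WT in experiment 2. Trac stood at 109 and 1.32 CPM and Cd3d at 13.7 and 2.46 CPM, both at 10 CPM in G3SEKO alone. Trbc1 stood at 1504 and 284 CPM and Cd247 at 39.0 and 12.6 CPM, while Cd3g, Cd4, Cd8a and Cd28 were at 0 in G3SEKO. Trac and Cd3d were at 0 in the lone cell of experiment 1. ILCP markers other than the gate genes summed to 1963 and 354 CPM. WT precursors carried all of these lists. In experiment 2, WT Zbtb16+ cells held 853 CPM of the NK and ILC1 markers, 2977 CPM of T lineage and 3931 CPM of ILCP markers. WT Il18r1+ Zbtb16- cells held 321, 1667 and 1323 CPM. The sums of the 50 G3SEKO cells lay between those of these WT precursor classes. Among 8 ILC2 markers at 10 CPM or more, Rora and Bcl11b were at least 2-fold higher and Klrg1, Areg, Il2ra and Gata3 at least 2-fold lower in G3SEKO, that is 2 and 4 of 8 beside the 16.1% and 17.0% of all genes, though Klrg1 and Areg reached 10 CPM in WT alone and had to differ. The part of these markers in the Nkg7 and Ms4a4b values was not tested.

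Elsewhere, 14 further genes of the granule pathway with a row (granule proteins, protease inhibitors, exocytosis factors, chemokines and a death ligand) summed to 1441 CPM in G3SEKO and 1318 CPM in WT ST2+ cells. Of 11 at 10 CPM or more, 1 was at least 2-fold higher (Cst7, an inhibitor of granule cathepsins) and 1 lower (Stx11, a syntaxin of granule exocytosis), each at 10 CPM in 1 genotype only, with a median log2 ratio of 0.21, against 0.05 over all genes at that level. Among ST2+ Il18r1+ cells 0 of 10 passed in either direction, where 17.2% of all genes were higher and 19.4% lower. Of 8 transcription factors of cytotoxic cells at that level, 3 were at least 2-fold higher and 1 lower, but those 3 reached 10 CPM in G3SEKO alone, so that their count is not used. Tbx21, which encodes T-bet, stood at 18.7 CPM in G3SEKO and 0.32 CPM in WT, Prdm1 at 61.6 and 5.86 CPM, Irf8 at 14.4 and 3.90 CPM, and Bhlhe40 at 16.8 and 68.9 CPM. The lists are short and were chosen with these data known, so nothing is read from their counts. Experiment 1 adds 1 G3SEKO cell, in which 3 reads make 6.98 CPM, so the genes of these lists are named from experiment 2 alone, after their values were seen.

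Across the classes the genes fell into different patterns. Nkg7 was at 369 and 389 CPM in WT Zbtb16+ cells (experiments 1 and 2), at 223 and 240 CPM in Il18r1+ Zbtb16- cells, at 57.0 and 28.2 CPM in ST2+ Il18r1+ cells and at 9.23 and 6.55 CPM in ST2+ Il18r1- cells. These 4 WT classes kept the same order in both experiments without overlap. Eomes+ cells (847 and 316 CPM) overlapped Zbtb16+ cells, and Cd3e+ cells (1222 and 781 CPM) overlapped Eomes+ cells. The 404 CPM of the ST2+ G3SEKO cells of experiment 2 was close to the WT Zbtb16+ level. The 198 CPM with gates at 2 and the 126 CPM of the lone cell of experiment 1 lay below that level, and all 3 values were above those of WT ST2+ cells. Ctsw had a similar order, with 228 and 217 CPM in WT Zbtb16+ cells, 175 and 83.9 CPM in Il18r1+ Zbtb16- cells and 10.3 and 12.5 CPM in ST2+ Il18r1- cells.

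Ms4a4b was highest in Cd3e+ cells, at 2058 and 2733 CPM in WT and 1132 and 2024 CPM in G3SEKO. It was low in WT Zbtb16+ cells, at 28.0 and 3.47 CPM, and intermediate in Il18r1+ Zbtb16- cells, at 104 and 49.7 CPM. Ms4a6b was highest in Cd3e+ cells too (494 and 1407 CPM in WT), and low in Zbtb16+ cells (18.1 and 18.6 CPM), and it was well above that in WT ST2+ Il18r1- cells (136 and 189 CPM), where Ms4a4b stood at 32.2 and 19.7 CPM. Ccl5 was at 1442 and 492 CPM in WT Zbtb16+ cells, overlapping Eomes+ cells (1221 and 406 CPM), and it differed more between experiments than between these 2 classes. Xcl1 was above 1 CPM in all 4 Eomes+ sums, with 72.0 and 5.58 CPM in WT, in 2 of 4 Cd3e+ sums, and in the WT cells of experiment 1 that passed no gate. In Eomes+ cells its reads lay in 4 of 17 and 2 of 26 WT cells. Prf1 exceeded 10 CPM in Cd3e+ cells of WT in experiment 1 (25.9 CPM) and of G3SEKO in experiment 2 (19.1 CPM), and in WT ST2+ Il18r1+ cells of experiment 1 (12.2 CPM). Single cells carried these levels, since 1 cell held 68.8%, 100% and 58.9% of the reads. The cells that passed no gate showed the genotype difference as well, with Nkg7 at 929.5 and 265 CPM in G3SEKO and 170 and 19.2 CPM in WT. That class is a remainder and differs in make-up between genotypes, so no more is drawn from it.

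**Figure D3:**
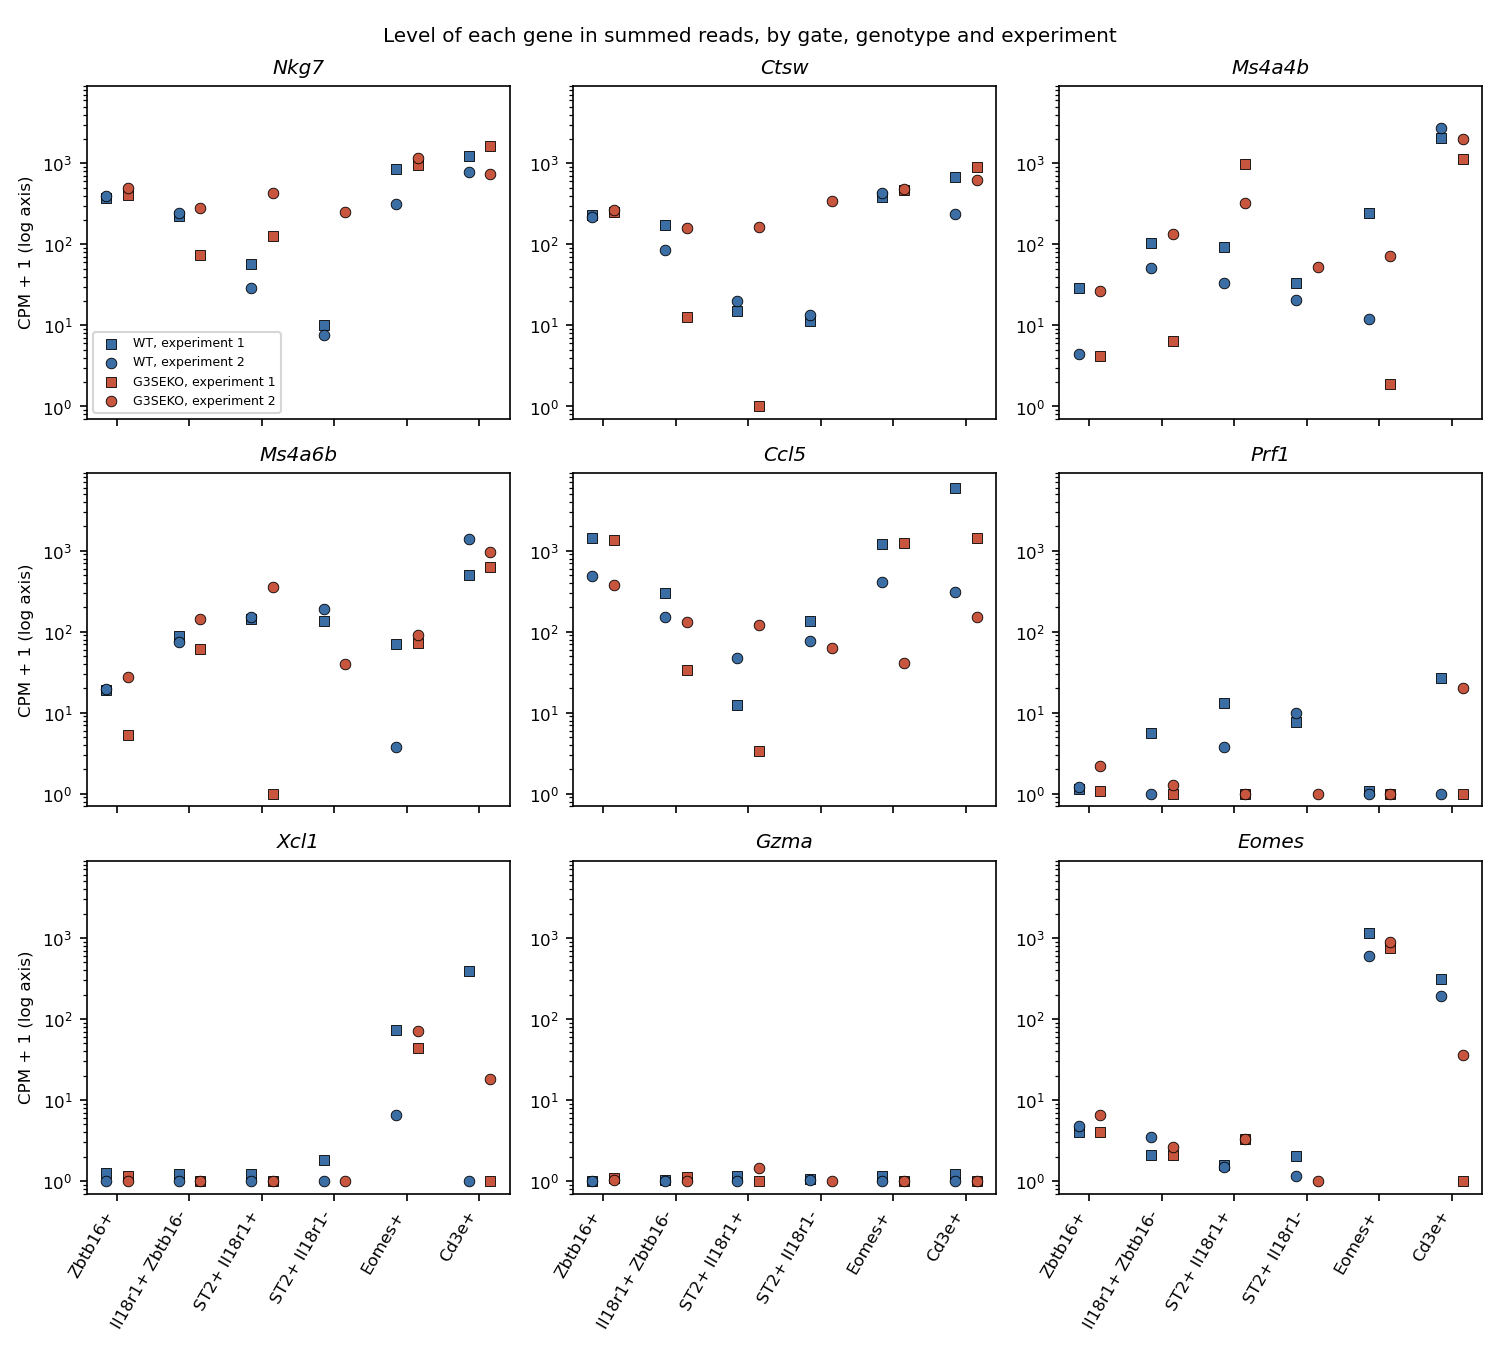
Level of 9 genes (CPM + 1, log axis) in summed reads of 6 gated classes (x axis) for WT (blue) and G3SEKO (red), with squares for experiment 1 and circles for experiment 2. The ST2+ Il18r1+ G3SEKO square is 1 cell, and ST2+ Il18r1- has no G3SEKO cell in experiment 1. Nkg7 and Ctsw were lower in ST2+ Il18r1- than in Zbtb16+ cells of WT, and Ms4a4b and Ms4a6b were highest in Cd3e+ cells.

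Sums over the 2 experiments were tested by edgeR's quasi-likelihood test in 1 model of all 25 sums with at least 5 cells, with the experiment as a block and Benjamini-Hochberg adjustment over 19991 genes. Of the 9 genes, 7 could be counted, because Gzma did not pass the filter on low counts and Eomes is a gate gene. The sums differ widely in their number of cells, from 5 to 3356. Comparing Cd3e+ with Zbtb16+ cells of WT asks whether the genes belong to T lineage-like cells of the same sort. Ms4a6b was higher in Cd3e+ cells (log2 fold change 5.54, SE 1.14, edgeR adjusted p = 0.0148), in both experiments. Xcl1 was higher as well (10.3, SE 2.66, adjusted p = 0.0491), but all its reads in WT Cd3e+ cells were in experiment 1, and without that sum the fold change was -1.02. It passed in 2 of 8 other settings. Ms4a4b had a larger value than Ms4a6b with a wider error (7.56, SE 2.28, adjusted p = 0.0834) and passed in 6 of 9 other settings. Prf1 (6.30, SE 2.46, adjusted p = 0.172, passed in 1 of 8 other settings), Nkg7 (1.37, SE 0.83, adjusted p = 0.376), Ctsw and Ccl5 did not pass. Thus 2 of 7 were higher, where 0.38% of all genes were called higher and 3.34% lower. Nothing is read from this count, since Xcl1 rests on 1 Cd3e+ sum and was at 0.24 and 0 CPM in WT Zbtb16+ cells. Leaving out either Zbtb16+ sum of WT ended the call of Ms4a6b (adjusted p = 0.13 and 0.121).

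Comparing Eomes+ with Zbtb16+ cells of WT asks the same for NK or ILC1-like cells. None of the 7 passed by edgeR, where 0% of genes were called higher and 0.005% lower. Xcl1 was nearest (9.07, SE 2.51, adjusted p = 0.756), with 72.0 and 5.58 CPM in Eomes+ cells against 0.24 and 0 CPM, and it passed in 1 of 9 other settings (lowest adjusted p = 0.0122). Nkg7 differed by 0.52 (SE 0.82) and Ctsw by 0.88 (SE 0.89). At an unadjusted p under 0.05, 1 of the 7 passed, and DESeq2 called 206 genes in all in this comparison, against 1 by edgeR.

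**Figure D4:**
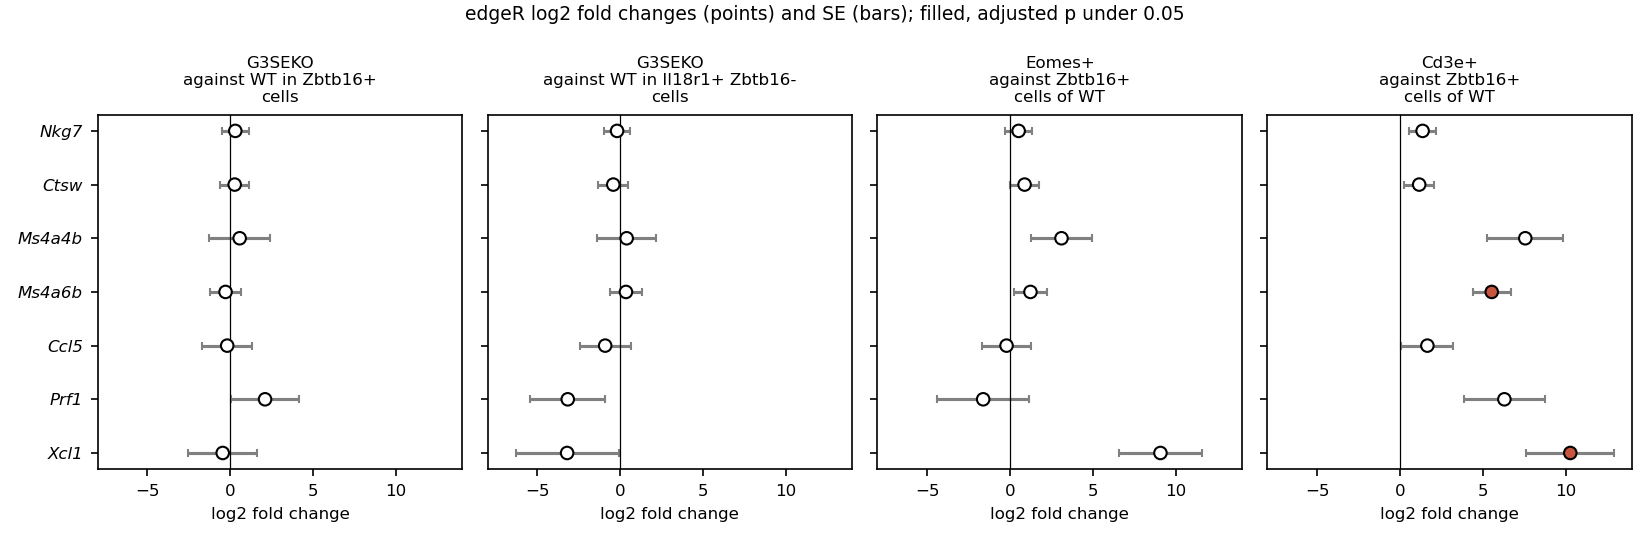
Log2 fold change (x axis, points) with its SE (bars) for 7 genes in 4 tested comparisons, from edgeR's quasi-likelihood test. Filled points have an adjusted p under 0.05. They are Ms4a6b and Xcl1 in Cd3e+ against Zbtb16+ cells of WT, and in both genotype comparisons all points lie within 2 SE of 0.

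The 2 precursor classes allow a comparison of the genotypes in cells the list was not chosen from. In Zbtb16+ cells Nkg7 was at 408 and 495 CPM in G3SEKO and 369 and 389 CPM in WT, a log2 fold change of 0.30 (SE 0.81, edgeR adjusted p = 1), higher in 2 of 2 experiments. Ctsw was at 252 and 268 CPM in G3SEKO against 228 and 217 CPM (0.27, SE 0.88, adjusted p = 1). Ms4a4b went opposite ways, at 3.16 and 25.8 CPM in G3SEKO against 28.0 and 3.47 CPM. The spread of Nkg7 among hashtags of experiment 1 was 262 to 437 CPM in 3 WT pools of 24 to 34 cells and 189 to 891 CPM in 3 G3SEKO pools of 2 to 10 cells, wider than the difference between genotypes. In Il18r1+ Zbtb16- cells Nkg7 was at 73.6 and 282 CPM in G3SEKO and 223 and 240 CPM in WT (-0.19, SE 0.81, adjusted p = 1). There, all 5 of Nkg7, Ctsw, Ms4a4b, Ms4a6b and Ccl5 were lower in G3SEKO in experiment 1, from 11 cells, and the first 4 were higher in experiment 2, from 507 cells. None of the 7 genes was called in either class, where 0% of all genes were called in either direction by edgeR, with 366 and 448 genes at an unadjusted p under 0.05 and 6 and 4 called by DESeq2. The difference of the genotype effects between the classes was -0.49 for Nkg7 (SE 1.14, adjusted p = 1). These errors are wide against the differences, which are therefore not resolved at this number of experiments.

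Among WT cells the step from Zbtb16+ to ST2+ Il18r1- cells was compared next. Nkg7 and Ms4a4b entered the choice of the list through WT ST2+ cells and are given by their values above. The log2 fold change of Ctsw in ST2+ Il18r1- cells was -4.18 (SE 1.001, adjusted p = 0.308 by edgeR), and it did not pass although the levels of the classes did not overlap in 2 of 2 experiments. In 9 other settings the adjusted p ran from 5.6e-07 to 0.345 and 5 passed, while no fit that left out a sum did. Ms4a6b differed by 3.22 (SE 1.02, adjusted p = 0.648 by edgeR), with adjusted p from 0.000573 to 0.798 in the other settings, of which 4 passed. Ccl5 had a value of -2.94 (SE 1.62, adjusted p = 1) and passed in 3 of the other settings. Prf1 had a value of 5.57 (SE 2.31, adjusted p = 0.853) and passed in 2 of them (lowest adjusted p = 0.0158). By edgeR 0.015% of genes were called higher and 0.065% lower, and among the ILCP markers Pdcd1, Tox and Tcf7 were lower. From Zbtb16+ to Il18r1+ Zbtb16- cells of WT, where 0% of genes were called in either direction with 688 at an unadjusted p under 0.05 and 15 called by DESeq2, Ms4a6b had a log2 fold change of 2.14 (SE 0.98, adjusted p = 1) and Nkg7 one of -0.70 (SE 0.81, adjusted p = 1). Ccl5 passed there in 1 of 9 other settings (lowest adjusted p = 0.00649), with log2 fold changes from -2.21 to -0.85.

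Likeness of pattern was measured as Pearson's r of log2(CPM + 5) over the 25 sums, among 13678 genes with at least 10 CPM in 1 sum. The sums share libraries, and r is a description. Ctsw was the gene most like Nkg7 (r = 0.93), followed by Tcf7 (0.88), Il2rb (0.83), Myh9 (0.82) and Cmah (0.79). Eomes, a gate gene whose pattern is set in part by the gates, came at rank 27 (0.63). Ccl5 came at 195 (0.41) and Ms4a4b at 221 (0.39). Prf1 had an r of -0.25, but it lay below the added 5 CPM in most sums, so its pattern is not read. The genes most like Ms4a4b were Gimap4 (0.90), AC109138.2 (0.87), Cd3d (0.86), Nsg2 (0.85) and AC160336.1 (0.84), with Ms4a6b at rank 14 (0.78) and Nkg7 at 534. Tcf7, a transcription factor of ILC precursors and T cells, stood at 632 CPM in ST2+ Il18r1+ cells of G3SEKO in experiment 2 and 41.6 CPM in WT, and at 1655 CPM in WT Zbtb16+ cells.

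The gates set which cells count as ST2+. With gates at 0.5, 80 G3SEKO cells passed in experiment 2 and Nkg7 stood at 303.1 CPM, against 13.0 CPM in WT. With gates at 2, 18 cells passed, with Nkg7 at 198 CPM, Ms4a4b at 392 CPM and Ctsw at 28.1 CPM, against 6.99, 20.7 and 14.01 CPM in WT. Nkg7 and Ms4a4b kept their direction at each level of the gates, and the Ctsw difference was smallest at the strictest. As the contrast chose Nkg7 and Ms4a4b and the gates share cells, their kept direction is a description only.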

How the data were processed

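Bone marrow αLPs of WT and G3SEKO mice were profiled in 2 TAS-Seq captures. The deposited values are read counts per gene and cell: per the study's methods the authors trimmed reads with Cutadapt, aligned them with Bowtie2 to Ensembl GRCm38 and counted reads per gene with mawk; whether molecular identifiers were collapsed is not given in the sources used here. Cells were called and demultiplexed by hashtag by the authors, and the hashtag is part of each cell's name. Of the columns of cells, 2 in experiment 1 and 100 in experiment 2 named no hashtag used here and were left out. Cells were kept within the study's read limits, with at most 10% mitochondrial reads and with Id2 at ln(1 + reads per 10000) of at least 1, leaving 724 and 6289 cells, of which 5 barcode numbers were shared. No doublet caller was run; cells with the most reads or a weak hashtag were left out as alternatives.

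Reads were summed per class, genotype and experiment over 23058 genes common to both tables, and tested with edgeR 4.0.16 (filterByExpr, TMM, experiment as block) in R 4.3.3, calling at an adjusted p of 0.05. The script was tested on simulated data. DESeq2 1.42.0, other filters and gates, thinned cells and left-out sums were alternatives; limma 3.58.1 with sample weights was added after the data were seen. Replicates are pooled captures. With the experiment as a block, p-values rest on the spread that the model leaves over all its sums, which come from 2 captures. They do not measure the spread between mice. Both genotypes of an experiment came from the same capture, which pairs them: deviations of the 2 genotypes correlated at r between 0.039 and 0.158 across genes in 4 classes. The genes, lists and tests were chosen with earlier results of these data known. Named were the 10 listed genes; by the rule, at most 4 genes per other list and contrast, by size of the ratio, among those called or 2-fold in both experiments; and the 5 genes most like Nkg7 and most like Ms4a4b. In the ST2+ contrast experiment 1 holds 1 G3SEKO cell, so genes of the other lists are named there by their ratio in experiment 2, or as defining markers at or near 0, after their values were seen. Positions are from GENCODE vM21 and promoters from RefSeq, both GRCm38.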

Additional observations from a re-analysis of the deposited data

How the results depend on the processing

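Nkg7 and Ms4a4b stayed higher in ST2+ cells of G3SEKO under every alternative run for that contrast. The contrast chose these genes and the alternatives reuse largely the same cells, so this is a description and no support. With Eomes+ and Cd3e+ cells kept, the log2 ratio of Ms4a4b, averaged over the experiments although experiment 1 is 1 G3SEKO cell, was 3.34 instead of 4.16. Leaving out an experiment gave 2.83 to 5.65 for Nkg7 and 3.79 to 4.53 for Ms4a4b. The share of ST2+ cells with a Nkg7 or Ms4a4b read fell in WT to 1.35% and 2.74% after thinning, from 3.86% and 6.43%, and the Ms4a4b share in G3SEKO was 44.4% instead of 26% with gates at 2. Counts of genes called moved more. For genotype in Zbtb16+ cells, DESeq2 called 6 genes instead of 0. In Il18r1+ Zbtb16- cells the thinned reads gave 1, DESeq2 4 and limma 4 instead of 0. For Eomes+ against Zbtb16+ cells of WT the count of 1 became 7 when thinned, 206 by DESeq2, 0 with gates at 0.5, 117 with gates at 2, 5 by limma and 0 with only the 2 groups. For Cd3e+ the count of 744 became 3322 by DESeq2, 468 and 2035 with gates at 0.5 and 2, 97 by limma, 294 without the Id2 limit and 70 with only the 2 groups. For Il18r1+ Zbtb16- the count of 0 became 11 when thinned, 15 by DESeq2, 1 with gates at 2, 476 by limma and 1 without the Id2 limit. For ST2+ Il18r1- the count of 16 became 294 when thinned, 323 by DESeq2, 59 with gates at 2, 2200 by limma, 26 without the Id2 limit and 443 with only the 2 groups. Leaving out 1 sum at a time gave 0 to 1 for Eomes+ (0 without the Eomes+ sum of experiment 2), 255 to 1679 for Cd3e+ (255 and 279 without either Zbtb16+ sum, 1679 without the Cd3e+ sum of experiment 1) and 3 to 7 for ST2+ Il18r1-. Xcl1, called higher in Cd3e+ cells, had a log2 fold change of -1.02 without the Cd3e+ sum of experiment 1. Without the experiment block the counts were 0, 0, 1, 716, 0 and 13 in the order given here, and the block changed the call of no gene of the set except Xcl1 (adjusted p = 0.117 without it). The causes were not tested. The 51 ST2+ G3SEKO cells, 1 of them in experiment 1, limit every value of that contrast.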
